A study of Mus musculus with 24 samples.

Results

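At the start of differentiation, cultures of primary mouse myoblasts (PMs) were compared with C2C12 cells, a mouse myoblast line, for the genes that do not lie on the X or Y chromosome. This set holds 26586 of the 28109 genes in the deposited count table, and the other 1523 genes are assigned to X or Y. The study asked which functions the Tead transcription factors share, and which are their own, when either cell type differentiates, and it measured polyadenylated RNA in 24 libraries. The comparison rests on 4 of these, which are 2 replicates of PMs and 2 of C2C12 cells. All came from cells transfected with siControl, an siRNA that the labels name siLuc. RNA was taken at day 0, which was 24 hours after transfection and before the change to medium with 2% horse serum. The PMs were isolated from wild type mice of the strain labelled C57/B6 at an age of 3 to 4 weeks and grown on matrigel in IMDM medium. The C2C12 line is labelled C3H and was grown in DMEM medium. Both media held 20% foetal calf serum. Cell type, strain, medium, coating and the separate library numbers of the PM and C2C12 series therefore changed together, and their parts in any difference below cannot be told apart. C2C12 is 1 line, and the number of mice behind each PM culture was not given in the sources used here. In bulk RNA, fewer cells of a type and less RNA per cell cannot be told apart.

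Skeletal muscle arises from committed precursors in which Pax7 and Myf5 mark the stem cell and early myoblast state and Myod1 drives commitment. Myogenin (Myog) and Mef2 factors then switch on the contractile genes while cells leave the cell cycle under Cdk inhibitors. Tmem8c (myomaker) and Gm7325 (myomixer) let the cells fuse into myotubes. Tead factors bind the MCAT element found in many muscle genes and also act as the DNA partners of Yap1 and Wwtr1 in the Hippo pathway.

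The libraries held 44748721 and 32571583 counts on genes in PMs and 33317817 and 52784510 in C2C12 cells. Levels are given in CPM, which are counts per 1000000 of the scaled library. Across the tested genes, Pearson's r of log2 CPM (with 0.5 CPM added) was 0.996 between the PM replicates, 0.995 between the C2C12 replicates and 0.910 to 0.915 between cell types. Of the 26586 genes, 15818 passed the filter on low counts and were tested, and 10768 were not. Calls needed both an edgeR adjusted p below 0.05 and a fold change of more than 1 on the log2 scale, in either direction. This gave 2555 genes higher in PMs (16.2% of the genes tested) and 1767 higher in C2C12 cells (11.2%). The libraries of the cell types did not overlap in any of the 2555 genes and in 1766 of the 1767. The rule for calls nearly ensures this, so it adds no support to the calls. The PM calls had larger estimates, with a median absolute log2 fold change of 2.98 against 1.90, and 699 against 218 genes lay beyond 5. In 763 PM calls and 251 C2C12 calls the other cell type had at most 3 counts in each library. The fold changes of such genes are uncertain, and they enter these values as estimated. The PM calls also rested on lower levels. The median of the highest library of a called gene was 2.94 CPM for PM calls and 16 CPM for C2C12 calls, beside 21.3 CPM over all tested genes. A level of at least 100 CPM in a library was reached by 248 and 273 of the called genes.

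In what follows, levels stand in the order PM replicates 1 and 2 against C2C12 replicates 1 and 2. The values in brackets after them are log2 fold changes ± standard error, positive where PMs were higher, and every gene said to be higher in a cell type met the rule for calls. Where a cell type had 0 counts in both libraries, the fold is a bound that sets 3 counts in each of its libraries, which is what a count of 0 allows. Where it had 1 to 3 counts, the ratio of the pooled counts of the higher to the lower cell type is given with a 95% interval, and bounds and intervals cover counting error only. With 2 libraries per group an exact permutation test of a single value cannot go below p = 0.333. The labels call the replicates biological, and no source used here says whether they came from separate isolations or passages, so p-values measure only the spread between these samples.

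**Figure D1:**
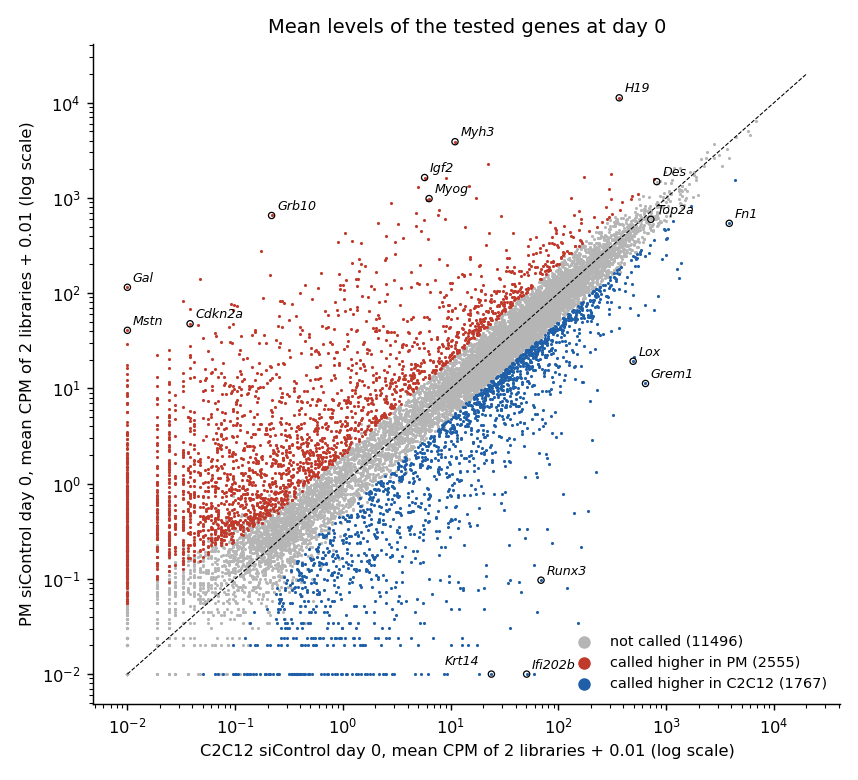
Mean level of each of the 15818 tested genes in C2C12 cells (x axis) and PMs (y axis) at siControl day 0, in CPM plus 0.01 on log scales, with genes called higher in PMs in red, called higher in C2C12 cells in blue and not called in grey. The 2555 red points reach down to C2C12 levels of 0 and the 1767 blue points down to PM levels of 0. In the median the blue points lie closer to the dashed line of equal levels.

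Both cell types expressed the markers of myoblasts, and most regulators of myogenesis were higher in PMs. Of the 25 tested genes listed as myogenic regulators and surface proteins, 17 were called higher in PMs and 1 in C2C12 cells. The median log2 fold change was 1.77, beside 0.00 over all tested genes. Myog, the factor that starts terminal differentiation, lies at chr1:136186581-136189124 in mm9. Its level was 944 and 1023 CPM in the PM libraries and 9.69 and 2.89 CPM in the C2C12 libraries (7.32 ± 0.51, edgeR adjusted p = 1.2e-06). The cell types were thus far apart, and the C2C12 replicates differed from each other by a larger factor than the PM replicates. Mef2c, a partner of Myog on muscle promoters, was at 189 and 202 against 8.81 and 9.6 CPM (4.41 ± 0.24, edgeR adjusted p = 2.1e-07). Smyd1, a methyltransferase needed to build myofibrils, was at 344 and 349 against 3.24 and 2.8 CPM (6.85 ± 0.20). The fusogens had the same order. Tmem8c was at 365 and 386 against 5.38 and 1.83 CPM (6.74 ± 0.44, edgeR adjusted p = 6.6e-07), and Gm7325 was at 64.4 and 92.7 against 0.338 and 0.211 CPM (8.21 ± 0.46, edgeR adjusted p = 2.5e-07).

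The commitment factors had smaller fold changes than these. Myod1, the determination factor, was at 989.9 and 997 against 136 and 126 CPM (2.92 ± 0.23, edgeR adjusted p = 2.7e-06). Pax7, which marks muscle stem cells, was at 99.3 and 97.7 against 23.3 and 18.5 CPM (2.24 ± 0.29, edgeR adjusted p = 1.2e-04). Myf5 was at 88.7 and 122 against 22 and 39.6 CPM (1.77 ± 0.36, edgeR adjusted p = 0.0021). All 3 were thus present in C2C12 cells. The libraries of the cell types did not overlap, which the rule for calls nearly ensures. Pax3 was near the detection limit, at 0.646 and 0.527 against 0.0282 and 0.176 CPM (2.34 ± 0.56). Surface markers of myoblasts, the cadherin Cdh15 (1.18 ± 0.22) and the integrin Itga7 (1.01 ± 0.13), were just past the fold threshold, and without a single library Itga7 could fall below it. Desmin (Des), the intermediate filament of muscle, was at 1526 and 1438 against 865 and 768 CPM (0.86 ± 0.14, edgeR adjusted p = 4.6e-04) and was not called.

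Msc (musculin), a repressor of Myod1 targets, was the listed factor called higher in C2C12 cells, at the low level of 0.125 and 0.194 against 1.35 and 2.57 CPM (-3.64 ± 0.52). Among 17 tested satellite cell genes 7 were called higher in PMs. They included the Fgf receptor gene Fgfr4, at 184 and 155 against 1.63 and 1.15 CPM (6.96 ± 0.50), and the Notch target Heyl, at 64.9 and 63.6 against 1.15 and 0.934 CPM (5.96 ± 0.50). Cd34, a surface glycoprotein of quiescent satellite cells, was called higher in C2C12 cells, at 1.92 and 1.58 against 31.5 and 11.2 CPM (-3.59 ± 0.59).

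The order of Myog did not persist in differentiated cells. Its mean at siControl day 3 was 1049 ± 119 CPM in PMs and 1117 ± 11 CPM in C2C12 cells (SD, n = 2 each). At day 6 it was 989.9 ± 211 CPM in PMs and 840.4 ± 193 CPM in C2C12 cells. The log2 fold changes were -0.09 and 0.24, and neither was called. With siTead1/4, the siRNAs against Tead1 and Tead4, in libraries other than those of the control comparison, the log2 fold change of Myog at day 0 was 6.99. Of the 25 listed genes, 16 were called higher in PMs with siTead1/4 at day 0. Over all 15810 genes tested there, 14.9% were called higher in PMs and 10.3% in C2C12 cells. At day 3 the list had 7 calls higher in PMs, where all tested genes had 17.2%, and 13.3% higher in C2C12 cells. At day 6 it had 5, where all tested genes had 15.8%, and 10% higher in C2C12 cells. In C2C12 cells 1 of the list was called higher with siTead1/4, 2 at day 3 and 1 at day 6.

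**Figure D2:**
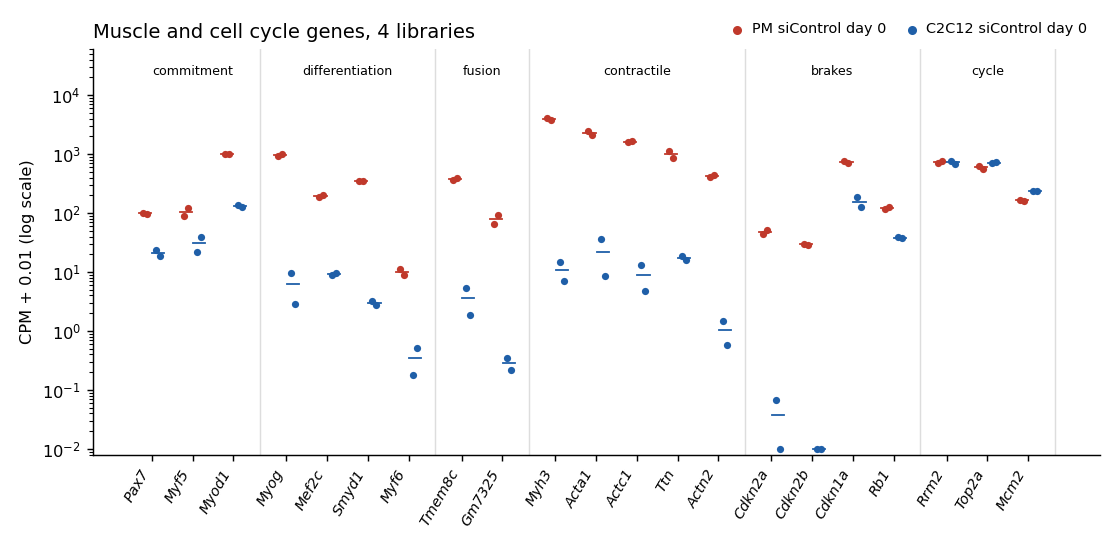
Level of genes of muscle and of the cell cycle in the 4 siControl day 0 libraries, in CPM plus 0.01 on a log scale, with a point for each library (PMs in red, C2C12 cells in blue) and a short line for the mean of 2. Myog, Myh3 and Actn2 show gaps of more than 100-fold, Pax7 and Myf5 smaller ones, Cdkn2b has its C2C12 points at the floor of the axis, and Rrm2 and Top2a lie side by side.

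Genes of the sarcomere were higher in PMs almost throughout. Of 54 tested contractile genes 48 were called higher in PMs, and all 54 had a positive log2 fold change, with a median of 6.02. Without C2C12 replicate 1 the median was 6.92. By edgeR 0 were called higher in C2C12 cells, 0 had an unadjusted p below 0.05 in that direction, and DESeq2 called 0. All 18 thick filament genes were called higher in PMs. Embryonic myosin Myh3 was at 4046 and 3735 against 14.8 and 7.14 CPM (8.48 ± 0.48, edgeR adjusted p = 2.5e-07). The fast myosin Myh1 was at 814 and 934 against 3.6 and 1.92 CPM (8.33 ± 0.46). Of the thin filament genes 12 of 15 were called. Cardiac actin Actc1, which precedes skeletal actin in development, was at 1587 and 1665 against 13.3 and 4.72 CPM (7.51 ± 0.46), and the slow troponin Tnnt1 at 532 and 542 against 5.18 and 1.29 CPM (7.43 ± 0.54). Of the Z-disc and titin genes 18 of 21 were called. Actn2, the crosslinker of the Z-disc, was at 404 and 444 against 1.49 and 0.564 CPM (8.77 ± 0.51), and Unc45b, a chaperone of myosin, at 122 and 119 against 0.732 and 0.141 CPM (8.28 ± 0.47). In each of these 6 genes both PM libraries lay above both C2C12 libraries, which the rule for calls nearly ensures.

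The machinery that couples excitation to contraction followed. Of 15 genes of calcium release 13 were called higher in PMs. The calcium store protein Casq2 was at 428 and 376 against 3.52 and 1.52 CPM (7.36 ± 0.36), and its luminal partner Hrc at 135 and 109.9 against 1.1 and 0.74 CPM (7.09 ± 0.28). Of 9 genes of the neuromuscular junction 8 were called. Chrng, the foetal subunit of the acetylcholine receptor, was at 324 and 349 against 2.31 and 0.617 CPM (7.93 ± 0.51). The subunit Chrnd was at 219 and 234 against 9.38 and 6.15 CPM (4.88 ± 0.29). The dystrophin complex and caveolae were mixed, with 4 of 11 higher in PMs and 2 higher in C2C12 cells. The muscle caveolin Cav3 was at 48.2 and 56 against 0.394 and 0.211 CPM (7.50 ± 0.29). Ptrf, which builds caveolae in most cells and was close to the fold threshold, was at 359 and 369 against 723 and 815 CPM (-1.08 ± 0.11), and it fell under that threshold without C2C12 replicate 2 and with upper quartile scaling. Sgcd, a sarcoglycan, was at 2.79 and 2.83 against 10.4 and 9.59 CPM (-1.83 ± 0.42). Of 12 genes of creatine and glycogen use 10 were called higher in PMs, with a median log2 fold change of 5.91, which was 6.80 without C2C12 replicate 1 and 5.09 without C2C12 replicate 2. Among them Ckmt2, the mitochondrial creatine kinase of muscle, was at 12.6 and 8.49 against 0.0845 and 0.0176 CPM (ratio 249, interval 97 to 917).

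Summed over the contractile list, the PM libraries held 26452 and 24483 CPM at day 0 and the C2C12 libraries 3159 and 2749.7 CPM. At day 3 the sums were 123359 and 113678 CPM in PMs and 47983 and 53572 CPM in C2C12 cells. PMs at day 0 thus lay between C2C12 cells at day 0 and at day 3. With siTead1/4 at day 0, 47 of 53 tested contractile genes were called higher in PMs. In the siControl libraries the count was 32 of 54 at day 3, with a median log2 fold change of 1.21. It was 26 of 54 at day 6, with a median of 1.05. In C2C12 cells 4 were called higher at day 3 and 2 at day 6.

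Promoter sequences are shown for 4 of these genes, because they hold matches to both elements that the regulators named above can bind. Binding at these promoters was not analysed here. Of the tested contractile, excitation and energy genes, 75 matched a RefSeq promoter window. Among those, 9 were called higher in PMs and held both an MCAT element (CATTCC, or GGAATG on the other strand) and an E-box (CAGCTG or CACCTG, bound by Myod1 and Myog) in the 250 bases before the start. The 4 with the largest log2 fold change are printed. Each sequence is from GRCm38.p6, 5′ to 3′ on the strand of the gene, with the matches in capitals. Positions are negative, with -1 as the base before the start, and give the first letter of a match as printed.
Cacna1s, the voltage sensor of the T-tubule, chr1:136052561-136052810, plus strand: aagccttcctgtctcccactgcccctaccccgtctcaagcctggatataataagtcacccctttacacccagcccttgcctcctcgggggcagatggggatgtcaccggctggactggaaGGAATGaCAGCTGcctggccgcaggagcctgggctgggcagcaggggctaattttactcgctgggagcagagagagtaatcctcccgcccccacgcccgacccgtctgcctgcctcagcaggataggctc
Acta1, skeletal actin, chr8:123894776-123895025, minus strand: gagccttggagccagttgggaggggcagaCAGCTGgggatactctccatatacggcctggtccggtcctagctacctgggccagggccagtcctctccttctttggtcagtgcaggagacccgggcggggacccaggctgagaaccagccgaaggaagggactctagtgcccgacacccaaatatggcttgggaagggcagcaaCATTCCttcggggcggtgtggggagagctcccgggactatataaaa
Myl1, an essential myosin light chain, chr1:66945057-66945306, minus strand: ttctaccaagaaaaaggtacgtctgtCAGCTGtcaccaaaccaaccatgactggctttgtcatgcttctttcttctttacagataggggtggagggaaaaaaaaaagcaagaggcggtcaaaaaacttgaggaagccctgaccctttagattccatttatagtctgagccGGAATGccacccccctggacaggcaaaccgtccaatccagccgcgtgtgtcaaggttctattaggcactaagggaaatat
Mybph, a myosin binding protein, chr1:134193198-134193447, plus strand: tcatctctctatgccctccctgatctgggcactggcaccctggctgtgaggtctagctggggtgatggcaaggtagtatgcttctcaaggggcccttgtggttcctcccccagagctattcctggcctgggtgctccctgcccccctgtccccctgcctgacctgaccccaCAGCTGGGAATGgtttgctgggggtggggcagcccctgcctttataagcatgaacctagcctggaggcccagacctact

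The Mybph window holds CAGCTG at -79 directly followed by GGAATG at -73, and the Cacna1s window holds GGAATG at -130 and CAGCTG at -123. In Acta1 the elements lie farther apart, with CAGCTG at -221 and CATTCC at -46, and in Myl1 they lie at -224 and -80. The levels were 129 and 149 against 2.14 and 0.581 CPM (6.77 ± 0.48) for Cacna1s and 2452 and 2132 against 36 and 8.41 CPM (6.70 ± 0.58) for Acta1. They were 854 and 629.7 against 12.4 and 3.28 CPM (6.59 ± 0.53) for Myl1 and 252 and 264 against 4.53 and 1.52 CPM (6.46 ± 0.41) for Mybph. A match alone is common. Of all 27025 RefSeq windows (250 bases before and 50 after the start), 14.6% hold CATTCC on either strand, 16.1% hold CAGCTG and 20% hold CACCTG. The share of all windows with both an MCAT element and an E-box is not given here, so the count of genes with both has no background. Motif shares of called genes were not compared, since 71.7% of the tested genes, and 74.3% of the 101 tested muscle genes, matched a window.

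All 4 Tead genes were present in both cell types. Per kilobase of gene length, Tead2 was at 39.8 and 37 CPM per kb in PMs and 23.3 and 20.4 CPM per kb in C2C12 cells. Tead4 was at 17.6 and 16.3 against 5.21 and 5.85 CPM per kb. Tead1 was at 15.6 and 13.7 against 6.49 and 10.3 CPM per kb, and Tead3 at 5.31 and 5.51 against 6.41 and 6.81. Per kb, Tead2 was thus the highest of the 4 in both cell types. In CPM not divided by length, Tead1 was above Tead2 in both PM libraries and in C2C12 replicate 2. Between cell types, Tead4 was called higher in PMs, at 63.2 and 58.6 against 18.8 and 21 CPM (1.61 ± 0.23, edgeR adjusted p = 2.2e-04). Tead1, at 169 and 149 against 70.5 and 112 CPM (0.80 ± 0.33, edgeR adjusted p = 0.072), was not called, and its C2C12 replicates differed from each other by a larger factor than its PM replicates. Tead2, at 148 and 137 against 86.2 and 75.5 CPM (0.82 ± 0.13, edgeR adjusted p = 3.8e-04), stayed under the fold threshold. Tead3, at 16.3 and 17 against 19.7 and 21 CPM (-0.29 ± 0.16, edgeR adjusted p = 0.17), was not called.

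Of 5 cofactors of Tead 2 were called higher in PMs. These were Vgll2, a muscle-enriched partner, at 57.8 and 52.6 against 10.0 and 12.8 CPM (2.27 ± 0.28), and its relative Vgll3 at 72.8 and 87.8 against 32.2 and 33.7 CPM (1.28 ± 0.15). Of 10 known target genes of the Hippo pathway 4 were called higher in C2C12 cells by edgeR and 5 by DESeq2. The matricellular factor Ctgf was at 18.8 and 16.8 against 140.2 and 111 CPM (-2.82 ± 0.64) and F3, the tissue factor of coagulation, at 1.46 and 1.44 against 18.5 and 17.7 CPM (-3.64 ± 0.37). Crim1 was at 12.7 and 13.8 against 44.7 and 42.4 CPM (-1.72 ± 0.26), and the kinase gene Nuak2 at 8.21 and 9.46 against 18.7 and 20.1 CPM (-1.14 ± 0.16). In the other direction edgeR and DESeq2 called 0 targets, and 1 had an unadjusted p below 0.05. Cyr61, another target, was at 168 and 129 against 349 and 308 CPM (-1.15 ± 0.43, edgeR adjusted p = 0.051) and was not called. Of 12 kinases and scaffolds of the pathway 1 was called, the scaffold Wwc1, at 16.8 and 15 against 8.25 and 7.56 CPM (1.01 ± 0.20), which fell under the fold threshold in some fits without a library.

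Few genes that execute the cell cycle were called. Of 22 DNA replication genes and 26 mitosis genes 0 were called by edgeR and 0 by DESeq2. At an unadjusted p below 0.05, 5 replication genes were higher in C2C12 cells, and 0 of either list in PMs. Over all 15818 tested genes, 4155 were higher in C2C12 cells at this threshold and 4129 in PMs. The median log2 fold changes were -0.45 and -0.37, beside -0.26 over 15 reference genes and 0.00 over all tested genes. Rrm2, which makes deoxynucleotides, was at 699 and 777 against 775 and 678 CPM (0.02 ± 0.14, edgeR adjusted p = 0.91). Top2a, which untangles chromosomes, was at 626 and 566 against 701 and 737 CPM (-0.27 ± 0.56, edgeR adjusted p = 0.72). Summed over the whole list, the PM libraries held 9359.6 and 9143 CPM and the C2C12 libraries 10509.8 and 10449 CPM. At day 3 the sums were 1805 and 2051 CPM and 2328 and 2179 CPM. Both cell types thus stood well above their day 3 level at day 0. Of 15 genes of G1 and S entry 3 were called higher in PMs, such as Ccnd3, the D cyclin of differentiating muscle, at 458 and 453 against 87.5 and 102 CPM (2.27 ± 0.19). In C2C12 cells 1 was higher, the repressor E2f7, at 25.7 and 30.9 against 75.2 and 80.0 CPM (-1.46 ± 0.48), and this call was lost in each of the 4 fits without a library.

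Genes that restrain the cell cycle held some of the widest gaps. Of 7 Cdk inhibitors 4 were called higher in PMs. Cdkn2a, which encodes p16 and p19Arf, lies at chr4:88920377-88940557 in mm9. It was at 44.6 and 50.8 CPM in PMs, and the C2C12 libraries held 2 and 0 counts (ratio 2180.1, interval 603 to 18008, edgeR adjusted p = 8.0e-07). Its neighbour Cdkn2b, which encodes p15, lies at chr4:88952198-88956941. It was at 29.9 and 28.8 CPM in PMs and had 0 counts in both C2C12 libraries (at least 427-fold, edgeR adjusted p = 6.6e-08). The coding gene on the other side of Cdkn2a behaved otherwise. Mtap, an enzyme of methionine salvage, was at 215 and 204 against 291 and 259.6 CPM (-0.39 ± 0.19, edgeR adjusted p = 0.12) and was not called. Dmrta1, next to Cdkn2b, was at 0.0208 and 0.0555 against 0 and 0.0529 CPM and was not tested. The mean of Cdkn2a in C2C12 cells stayed near 0 later, with 0.0115 CPM on day 3 and 0 CPM on day 6. In PMs it was 21.7 and 37.4 CPM on these days.

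The other called brakes were present in both cell types. Cdkn1a, which encodes p21, was at 776 and 694 against 186 and 125 CPM (2.24 ± 0.20), and Cdkn1c, which encodes p57, at 35.8 and 46.4 against 2.87 and 1.44 CPM (4.29 ± 0.55). The pocket proteins split. Rb1 was at 119 and 127 against 39 and 37.8 CPM (1.68 ± 0.13) and Rbl2 at 28 and 22.9 against 56.4 and 50.6 CPM (-1.07 ± 0.12). Of 13 genes of the p53 list 4 were called higher in PMs. Trp53inp1 was at 62.4 and 65.8 against 16.9 and 18.1 CPM (1.87 ± 0.20), and Pmaip1, a trigger of apoptosis, at 39.3 and 40.6 against 19.8 and 15.8 CPM (1.17 ± 0.15). Gdf15, a stress cytokine, was the 1 member called higher in C2C12 cells, at 12.3 and 9.41 against 42.7 and 25.2 CPM (-1.64 ± 0.44). The calls of Rbl2 and Gdf15 were lost in some fits without a library.

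**Figure D3:**
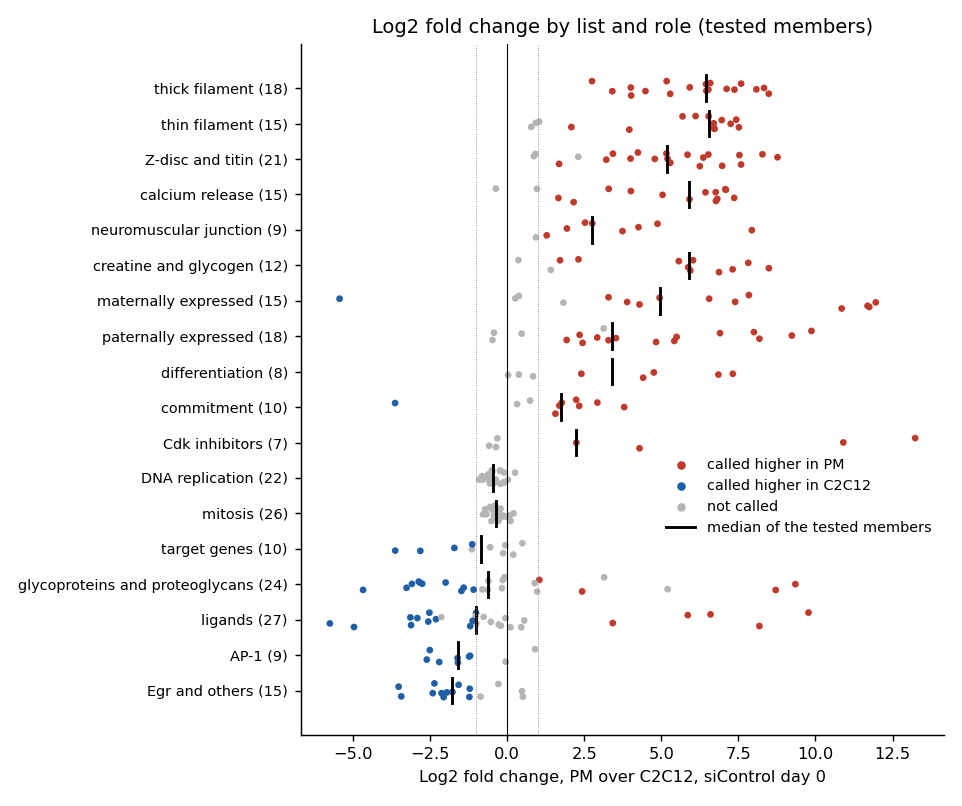
Log2 fold change of PMs over C2C12 cells at siControl day 0 for the tested members of 18 lists by role, with the number of members in brackets, calls in red (higher in PMs) and blue (higher in C2C12 cells), other genes in grey and the median as a black bar. The thick filament median lies at 6.45, DNA replication at -0.45, and AP-1 genes at -1.60.

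Imprinted genes, which are expressed from the allele of 1 parent and many of which regulate foetal growth, also had a high share of PM calls. Of 33 tested imprinted genes 25 were called higher in PMs and 1 in C2C12 cells. The median log2 fold change was 4.29. It was 3.53 when genes with at most 3 counts in each C2C12 library were set to their fold over 3 counts. Genes of both parental classes were among them, with 11 of 15 maternally and 14 of 18 paternally expressed genes. The growth factor gene Igf2 was at 1797 and 1475 against 7.8 and 3.63 CPM (8.18 ± 0.49, edgeR adjusted p = 3.7e-07). Its neighbour H19, a long non-coding RNA, was at 12464 and 10021 against 420.1 and 312 CPM (4.94 ± 0.26, edgeR adjusted p = 1.7e-07). On chromosome 12 the non-coding RNAs Meg3 (ratio 3680.3, interval 1018 to 30396) and Rian (ratio 4346, interval 1487 to 21077) were nearly without counts in C2C12 cells. Meg3 was at 67.7 and 95.8 against 0.0282 and 0.0176 CPM and Rian at 139 and 145 against 0.0563 and 0.0176 CPM. Dlk1, a Notch-like ligand of the same domain, was at 2.06 and 1.58 CPM in PMs and had 0 counts in C2C12 cells (at least 26.5-fold). Grb10, an inhibitor of insulin and Igf1 signalling, was at 737 and 569.9 against 0.31 and 0.106 CPM (11.75 ± 0.37, edgeR adjusted p = 1.0e-08). Zdbf2 was at 85.8 and 63.1 against 0.141 and 0.0352 CPM (9.87 ± 0.43).

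Other members had smaller gaps. Peg3 was at 1714 and 1628 against 122 and 221 CPM (3.28 ± 0.31), Igf2r, the receptor that clears Igf2, at 341 and 297 against 14.3 and 28.6 CPM (3.89 ± 0.50), and the retroelement-derived Peg10 at 435 and 408 against 78.7 and 143 CPM (1.93 ± 0.41). Both PM libraries lay above both C2C12 libraries in each, which the rule for calls nearly ensures. Sgce (18.2 and 18.1 against 22.5 and 28.1 CPM), Snrpn (15.1 and 12.7 against 11.1 and 9.0 CPM), Gatm (192 and 216 against 151 and 163 CPM) and Blcap (31.2 and 31.8 against 25.7 and 26.9 CPM) were not called. Slc22a18 was the 1 member called higher in C2C12 cells, at a trace level of 0.113 and 0.141 CPM with 0 counts in PMs, and its call was lost in each of the 4 fits without a library. Summed over the list, the PM libraries held 19693 and 16872 CPM and the C2C12 libraries 964 and 1036 CPM. At day 3 the sums were 40577 and 32655 CPM and 12426 and 14125 CPM. H19 alone had a mean of 27635 ± 5084 CPM in PMs and 11848 ± 928 CPM in C2C12 cells at that day (SD, n = 2 each). The calls recurred in other libraries. With siTead1/4 at day 0, 24 of 32 tested members were called higher in PMs, and with siControl 27 of 33 at day 3 and 25 of 33 at day 6. At most 2 were called higher in C2C12 cells in any of these.

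**Figure D4:**
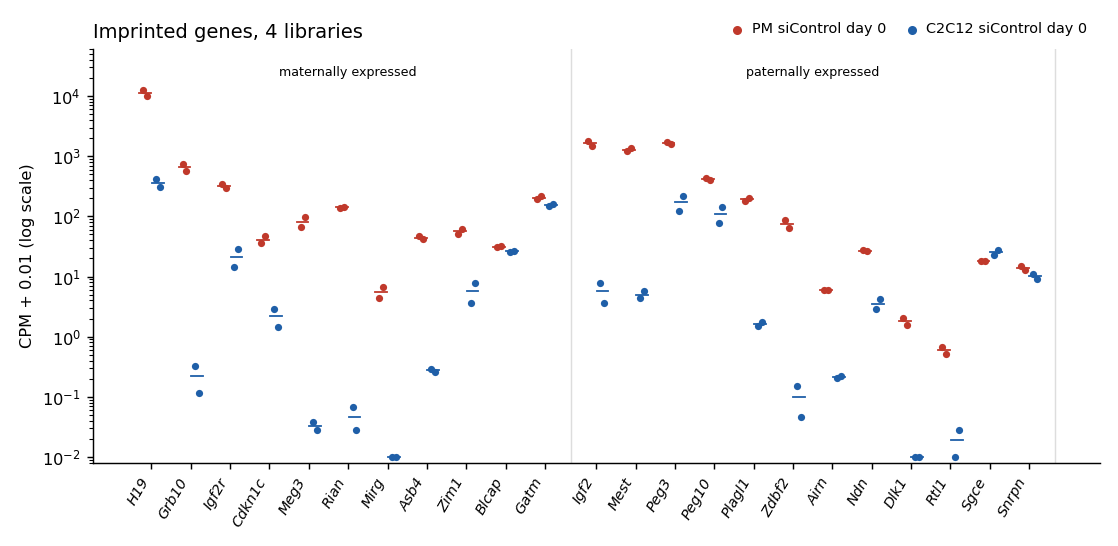
Level of 23 imprinted genes in the 4 siControl day 0 libraries, in CPM plus 0.01 on a log scale, as a point for each library (PMs in red, C2C12 cells in blue) with a line for the mean of 2. Maternally expressed genes are on the left and paternally expressed genes on the right, and in both sets most C2C12 points lie far below the PM points, whereas those of Blcap, Gatm, Sgce and Snrpn lie close to them.

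Signalling genes differed in both directions, pathway by pathway. In the Notch pathway, by which neighbouring cells hold each other undifferentiated, 8 of 19 tested genes were called higher in PMs. In C2C12 cells 0 were called by edgeR and 0 by DESeq2, and 3 had an unadjusted p below 0.05. The ligand Dll1 was at 77.1 and 86.1 against 1.04 and 0.617 CPM (6.66 ± 0.26), and the receptor Notch3 at 289 and 220.3 against 57.5 and 59.7 CPM (2.12 ± 0.36). The order of Notch3 turned later, with log2 fold changes of -0.82 at day 3 and -1.15 at day 6. In the Wnt pathway 13 of 43 genes were called higher in PMs and 10 in C2C12 cells. Among ligands, Wnt5a was at 8.65 and 7.24 against 0.113 and 0.194 CPM (5.60 ± 0.51) and Wnt7b at 19.3 and 16.1 against 1.07 and 0.74 CPM (4.31 ± 0.40), whereas Wnt10a was at 0.104 and 0.0277 against 18.8 and 17.2 CPM (-7.92 ± 0.51). Of the inhibitors and targets, Dkk2 was at 0.751 and 0.666 against 11.5 and 11.6 CPM (-4.02 ± 0.51) and the transcription factor Lef1 at 3.48 and 4.61 against 13.5 and 13.9 CPM (-1.76 ± 0.29). Nkd1, a feedback inhibitor, was at 1.79 and 4.13 CPM in PMs with 0 counts in C2C12 cells (at least 43.2-fold). The receptors of R-spondins split as well. Lgr6 was at 2.17 and 4.63 against 83.5 and 126 CPM (-4.96 ± 0.77), and its relative Lgr5 at 3.94 and 3.5 against 0.0845 and 0.0529 CPM (ratio 57.7, interval 26.2 to 158).

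In the Tgfb and Bmp pathway 13 of 44 genes were called higher in PMs and 12 in C2C12 cells. Mstn (myostatin), a muscle-made inhibitor of muscle growth, was at 40.0 and 41.4 CPM in PMs and had 0 counts in C2C12 cells (at least 593-fold, edgeR adjusted p = 1.1e-07). The ligands Inhba, a subunit of activins, at 4.71 and 5.91 against 47.7 and 72.2 CPM (-3.50 ± 0.66), and Bmp4, at 0.25 and 0.194 against 3.55 and 1.83 CPM (-3.54 ± 0.41), were higher in C2C12 cells. Of the receptors, Acvr2a, which binds activins and myostatin, was at 60.3 and 63.8 against 21.4 and 27.9 CPM (1.33 ± 0.15), and Tgfbr2 at 38.9 and 39.7 against 97.6 and 80.0 CPM (-1.18 ± 0.20). Ltbp2, a matrix protein related to the binders of latent Tgfb, was at 8.09 and 11.2 against 259 and 194 CPM (-4.56 ± 0.51). The Bmp antagonist Grem1 had the same order, at 10.6 and 11.9 against 631 and 652 CPM (-5.83 ± 0.35). Another antagonist, Nog, was at 6.73 and 9.68 against 1.1 and 1.29 CPM (2.77 ± 0.28). Of 27 growth factor ligands 5 were called higher in PMs and 11 in C2C12 cells. Fgf6, a muscle-restricted Fgf, was at 2.71 and 2.61 CPM in PMs with 0 counts in C2C12 cells (at least 38.7-fold), and DESeq2 did not call it. Hgf, a mitogen that activates satellite cells, was at 1.25 and 1.05 against 43.9 and 81.5 CPM (-5.76 ± 0.34), and Ereg, of the Egf family, at 2.17 and 2.05 against 50.2 and 82.6 CPM (-4.97 ± 0.60). The Igf binding proteins split. Igfbp3 was at 98.5 and 122 against 15.1 and 4.85 CPM (3.48 ± 0.51) and Igfbp4 at 39.4 and 28.8 against 5.43 and 4.0 CPM (2.86 ± 0.36), whereas Igfbp2 was at 63.8 and 67.7 against 867 and 666 CPM (-3.54 ± 0.44) and Igfbp6 at 5.63 and 5.52 against 90.1 and 94.7 CPM (-4.05 ± 0.23). Among receptors, the neuregulin receptor Erbb3 was at 126 and 122 against 5.66 and 6.4 CPM (4.36 ± 0.20). The Pdgf receptor genes Pdgfrb, at 27.3 and 23.3 against 85.8 and 86.1 CPM (-1.77 ± 0.18), and Pdgfra, at 3.54 and 3.25 against 10.2 and 9.99 CPM (-1.57 ± 0.27), were higher in C2C12 cells.

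Matrix genes were on balance lower in PMs. Of 84 tested genes 27 were called higher in C2C12 cells and 18 in PMs, with a median log2 fold change of -0.61. Summed over the list, the C2C12 libraries held 23518 and 25985 CPM and the PM libraries 11514 and 12243 CPM. Markers of fibroblasts, which make much of the matrix in muscle, were also lower in PMs in sum, at 562 to 575 CPM against 911 to 1416 CPM. Their part in the matrix values was not tested. Col3a1 made up most of each marker sum. Of the 13 tested fibroblast markers 9 had a positive log2 fold change, and the median was 0.48. That list shares 5 genes with the matrix list, namely Col1a1, Col3a1, Dcn, Lum and Mfap5. Lox, which crosslinks collagen, was at 17.8 and 20.7 against 484 and 501 CPM (-4.68 ± 0.17), and its relative Loxl2 at 8.63 and 8.6 against 80.9 and 85.1 CPM (-3.27 ± 0.21). Timp3, an inhibitor of metalloproteases, was at 5.19 and 5.22 against 269 and 373 CPM (-5.95 ± 0.25), and the basement membrane linker Nid1 at 149 and 139 against 846 and 1765 CPM (-3.18 ± 0.35). Col6a3, a chain of microfibrillar collagen, was at 88.2 and 62.4 against 487 and 776 CPM (-3.07 ± 0.44). Col1a2 was at 295 and 209.9 against 849 and 1131 CPM (-1.97 ± 0.24). Col3a1, the type III chain, was at 447 and 489.8 against 778 and 1277 CPM (-1.13 ± 0.28), and without C2C12 replicate 2 it was not called. Col1a1, whose product pairs with that of Col1a2 in type I collagen, was at 73.5 and 46.6 against 49.8 and 43.4 CPM (0.37 ± 0.26, edgeR adjusted p = 0.27) and was not called. Higher in PMs were Col15a1, a collagen near basement membranes, at 33.6 and 26 against 0.169 and 0.141 CPM (7.59 ± 0.48), and the fibrillin Fbn2, at 10.8 and 7.38 against 0.0282 and 0 CPM (ratio 862, interval 154 to 34096). Col25a1, a membrane collagen needed for muscle innervation, was at 21.7 and 39.7 against 0.0563 and 0.0705 CPM (8.82 ± 1.34). Of 30 tested adhesion genes 15 were called higher in PMs and 5 in C2C12 cells. Itgb4, the integrin of hemidesmosomes, was at 134 and 148 against 1.46 and 1.18 CPM (6.75 ± 0.27). Itga8, an integrin of mesenchyme, was at 2.38 and 1.42 against 0 and 0.0176 CPM (ratio 181, interval 32.1 to 7200.5). The integrin Itgb7 was at 0.354 and 0.305 against 8.7 and 14.5 CPM (-5.12 ± 0.53), the integrin Itgb3 at 14.4 and 11.6 against 82.2 and 93 CPM (-2.75 ± 0.26) and the adhesion molecule Alcam at 91.1 and 94.4 against 249 and 303 CPM (-1.57 ± 0.19).

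Immediate early genes, which cells induce within minutes of serum or stress, leaned to C2C12 cells. Of 24 tested genes 18 were called higher there, with a median log2 fold change of -1.61. In PMs 0 were called by edgeR and 0 by DESeq2, and 2 had an unadjusted p below 0.05. Egr3, a zinc finger factor, was at 0.813 and 1.33 against 8.22 and 15.9 CPM (-3.52 ± 0.44), and Ier3 at 5.19 and 3.55 against 58.3 and 37 CPM (-3.44 ± 0.33). Of the AP-1 genes 7 of 9 were called. Fosb was at 0.542 and 0.444 against 3.66 and 2.47 CPM (-2.61 ± 0.44) and Atf3 at 3.63 and 2.39 against 27.8 and 6.94 CPM (-2.51 ± 0.85), and Atf3 lost its call in 3 of the 4 fits without a library. Egr1, a zinc finger factor, was at 63.5 and 41.7 against 104 and 142 CPM (-1.23 ± 0.41), and it lost its call without PM replicate 2, without C2C12 replicate 2 and with all 24 libraries in the fit. Fewer members were called higher in C2C12 cells in the other comparisons, but at day 3 all calls of the list still had that direction. With siTead1/4 at day 0 it had 10 calls higher in C2C12 cells and 3 in PMs. With siControl it had 10 and 0 at day 3, and 4 and 7 at day 6.

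Of 30 chemokine and cytokine genes 10 were called higher in C2C12 cells and 3 in PMs. The membrane chemokine Cx3cl1 was at 6.19 and 6.6 against 58 and 60.2 CPM (-3.21 ± 0.32), and Osmr, the receptor of oncostatin M, at 2.79 and 1.75 against 23.1 and 19.3 CPM (-3.20 ± 0.25). Il6ra, the receptor of interleukin 6, was at 0.771 and 0.888 against 8.67 and 10.2 CPM (-3.51 ± 0.28). In PMs Cxcl12, a chemoattractant of myogenic precursors, was at 157 and 183 against 34.9 and 30.5 CPM (2.38 ± 0.39), and the inflammatory cytokine Il1b at 2.02 and 1.89 against 0.0845 and 0.0705 CPM (4.63 ± 0.74). Antigen presentation split within the pathway, with 5 of 13 genes higher in PMs and 6 in C2C12 cells. The peptide transporter Tap1 was at 10.3 and 7.49 against 1.63 and 0.916 CPM (2.83 ± 0.47). B2m, the light chain of class I molecules, was at 86.4 and 85.3 against 262 and 220.2 CPM (-1.49 ± 0.24), and H2-T23 at 0.896 and 0.61 against 5.74 and 7.21 CPM (-3.08 ± 0.51). H2 genes resemble each other and vary between strains, so their counts are uncertain. Of 24 interferon response genes 1 was higher in PMs and 3 in C2C12 cells, among them the factor Irf1 at 8.61 and 9.93 against 29.3 and 26 CPM (-1.58 ± 0.31). Over all tested genes 16.2% were called higher in PMs and 11.2% in C2C12 cells, so the C2C12 calls were near that share. At day 3 both roles together had 21 calls higher in PMs and 3 in C2C12 cells among 37 tested genes. All tested genes had 17.2% and 13.3% at that day.

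Of 41 genes of glycolysis and cholesterol synthesis 4 were called higher in PMs and 4 in C2C12 cells. The insulin-responsive glucose transporter Slc2a4 was at 4.77 and 4.88 against 0.479 and 0.493 CPM (3.30 ± 0.37), and Slc2a3, a transporter of high affinity, at 4.73 and 3.8 against 0.366 and 0.423 CPM (3.42 ± 0.54). The general transporter Slc2a1 was called higher in C2C12 cells (-1.88 ± 0.21), as was Sqle, an enzyme of cholesterol synthesis, at 69.8 and 73.4 against 155 and 153 CPM (-1.11 ± 0.17). Of 15 reference genes B2m alone was called. Of 36 tested genes that record position in the embryo 10 were called higher in PMs and 6 in C2C12 cells. No HoxD gene of the list had a count in the C2C12 libraries, so a HoxD gene could only be called higher in PMs. Of the 8 HoxD genes of the list that were found, the filter on low counts kept 4. By edgeR all 4 were called higher in PMs, and by DESeq2 2 were. Their common direction follows from the absence of counts in C2C12 cells and adds no support to the calls. Hoxd8 was at 2.94 and 2.25 CPM in PMs (at least 37.8-fold) and Hoxd9 at 1.17 and 0.583 CPM (at least 12.7-fold). Lbx1, a factor of the precursors that migrate into the limb, was at 39.5 and 37.8 against 0.197 and 0.0881 CPM (8.17 ± 0.30), and the hindlimb factor Tbx4 at 5.63 and 8.27 against 0.0563 and 0.0529 CPM (ratio 125, interval 53.2 to 386). Meis2, a factor of the proximal limb, was at 6.07 and 3.52 against 49.9 and 64.3 CPM (-3.56 ± 0.28), and Shox2 at 0 and 0.0277 against 0.704 and 0.581 CPM (ratio 52.8, interval 9.11 to 2121).

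Some genes were expressed in 1 cell type and nearly absent from the other. With at least 10 CPM in both libraries of a cell type and at most 3 counts in each library of the other, there were 38 genes for PMs and 14 for C2C12 cells. Over all called genes, the other cell type was at this floor for 763 PM calls and 251 C2C12 calls. Beside Mstn, Cdkn2a, Cdkn2b and the imprinted genes, the neuropeptide gene Gal was at 147 and 83.1 CPM in PMs with 0 counts in C2C12 cells (at least 1677-fold). Thy1, a surface glycoprotein of several cell types, was at 17.8 and 14.5 CPM in PMs with 0 counts in C2C12 cells (at least 236-fold). The same held for Cpne4 (15.3 and 20.1 CPM, at least 258-fold), Tmem30b (15.6 and 12.9 CPM, at least 207-fold) and Zcchc3 (12.7 and 11.7 CPM, at least 178-fold). Wbscr17, a glycosyltransferase, was at 70.9 and 66.4 against 0.0563 and 0 CPM (ratio 3181, interval 880.1 to 26269.6).

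In C2C12 cells Ifi202b, an interferon-inducible DNA sensor, was at 43.2 and 58 CPM with 0 counts in PMs (at least 695-fold). The basal keratin Krt14 was at 26.2 and 21.5 CPM with 0 counts in PMs (at least 327-fold). The transcription factor Runx3 was at 0.146 and 0.0277 against 68.4 and 69.3 CPM (-9.46 ± 0.50), and Sprr1a, a protein of the cornified envelope, at 0.0208 and 0 against 17.6 and 17.6 CPM (ratio 1478, interval 265 to 58404). The annexin Anxa8 was at 0.208 and 0.444 against 92 and 64.8 CPM (-7.95 ± 0.51), the monocarboxylate transporter Slc16a11 at 0.146 and 0.111 against 65.6 and 52.6 CPM (-8.79 ± 0.56) and the proliferin Prl2c3 at 0.459 and 0.499 against 101 and 179.6 CPM (-8.19 ± 0.41). Copies of other genes were also among the largest. Rps26-ps1 was at 0.0417 and 0.0277 against 69.2 and 58.2 CPM (ratio 1748, interval 598 to 8479.6), Rps15a-ps8 at 0.0834 and 0.0832 against 48.9 and 36.5 CPM (-8.95 ± 0.39) and Pcna-ps2 at 0.0625 and 0.111 against 39.7 and 30.8 CPM (-8.67 ± 0.38). Such copies and the Prl2c family have near-identical relatives, so their counts are uncertain. Of 506 tested pseudogenes 112 (22.1%) were called higher in C2C12 cells and 41 (8.10%) in PMs. Of 689 lincRNA genes 55 (7.98%) were called higher in C2C12 cells and 174 (25.3%) in PMs. Reads were aligned to mm9, the genome of a C57BL/6J mouse, which is the strain background of the PMs and not that of C2C12 cells. The part of the alignment in the pseudogene calls was not tested.

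Neighbouring genes were often called in the same direction. The longest run of neighbours among the tested genes held 10 genes on chromosome 11 (66866172 to 67185088 in mm9), all higher in PMs, and spans the skeletal myosin heavy chains from Myh3 to Myh13. A run of 6 on chromosome 1 held Mybph and Myog. Runs of 5 on chromosome 12, from Dlk1 to Mirg, and of 7 on chromosome 17, around Igf2r and Airn, were imprinted domains with their neighbours. A run of 8 on chromosome 6 held carboxypeptidase genes and the imprinted gene Mest, all higher in PMs. In C2C12 cells a run of 8 on chromosome 15 held the surface antigen genes Ly6a, Ly6c1 and Ly6c2, and a run of 5 on chromosome 1 held Ifi202b and its relatives. Overlapping genes and near copies in a run can share reads, and no test of the runs was made.

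Over whole autosomes, the medians of 3 lay farthest from 0. The median log2 fold change of the tested genes was 0.29 on chromosome 7, -0.22 on chromosome 10 and -0.41 on chromosome 15. The other 16 autosomes ranged from -0.11 to 0.11. On chromosome 7, 264 of 1227 tested genes (21.5%) were called higher in PMs and 90 in C2C12 cells. On chromosome 15, 135 of 632 (21.4%) were called higher in C2C12 cells and 69 in PMs. The shift ran along the chromosomes, where medians over bins of 20 Mb were 0.21 to 0.53 on chromosome 7 and -0.46 to -0.32 on chromosome 15. On chromosome 10 they were -0.29 to 0.16, with all but the bin at the start below 0. In comparisons made on other libraries the same 3 lay farthest from 0, chromosome 10 by the least. Given for chromosomes 7, 10 and 15, the medians were 0.29, -0.18 and -0.42 with siTead1/4 at day 0, beside -0.09 to 0.13 on the others. They were 0.35, -0.26 and -0.38 with siControl at day 3, beside -0.09 to 0.20. At day 6 they were 0.38, -0.19 and -0.39, beside -0.09 to 0.16. The upper ends at days 3 and 6 are those of chromosome 9. No measure of copy number was analysed here.

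**Figure D5:**
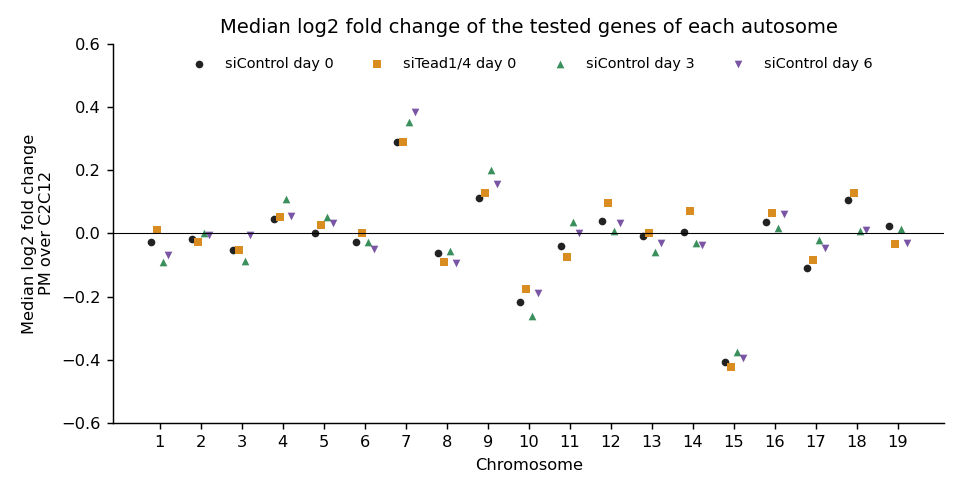
Median log2 fold change of PMs over C2C12 cells for the tested genes of each autosome (x axis) in 4 comparisons, marked by shape and colour. Chromosome 7 lies near 0.3 and chromosomes 10 and 15 near -0.2 and -0.4 in all 4, and the other autosomes lie between -0.11 and 0.20, with chromosome 9 the highest of them at days 3 and 6.

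Most calls kept their direction in other libraries. Of the 2555 genes called higher in PMs, 2502 were tested with siTead1/4 at day 0, where 2480 had the same sign and 1947 were called the same way. With siControl the sign was the same for 2175 of the 2555 genes at day 3, and 1583 were called. At day 6 it was the same for 2146, and 1457 were called. Of the 1767 genes called higher in C2C12 cells, 1739 were tested with siTead1/4, where 1728 had the same sign and 1307 were called. With siControl 1066 were called at day 3 and 775 at day 6. In all 4 comparisons 1127 genes were called higher in PMs (44.1% of the day 0 calls) and 615 in C2C12 cells (34.8%).

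Markers of other cells that a muscle isolate could hold were summed in each library. Fibroblast markers summed to 562 to 575 CPM in PMs and 911 to 1416 CPM in C2C12 cells. Col3a1 made up most of each of these sums. Of 13 tested 2 were called higher in PMs and 3 in C2C12 cells, and Tcf21 had 0 counts in all 4 libraries. A positive log2 fold change was found for 9 of the 13, with a median of 0.48, so sum and median differed in direction. Endothelial markers summed to 5.35 to 14.1 CPM in PMs and 1.87 to 2.34 CPM in C2C12 cells, and 5 of 10 were called higher in PMs, of which Pecam1, Tie1 and Erg lost their calls in some fits without a library. They were uneven between PM replicates, as in Pecam1 (2.86 and 0.999 against 0.113 and 0.0176 CPM) and Emcn (1.69 and 0.166 against 0 and 0 CPM). Macrophage markers summed to 33.3 to 38.9 CPM in PMs and 8.41 to 9.91 CPM in C2C12 cells (3 and 1 of 7 called higher). Laptm5 made up most of this in PMs, at 27.9 and 33.3 against 0.141 and 0.0176 CPM (8.78 ± 0.57), while Ptprc, which all leukocytes express, had 0 counts there. Schwann cell markers summed to 144 to 152 CPM in PMs and 36.7 to 42.2 CPM in C2C12 cells (2 and 1 of 8), in PMs mostly through Erbb3. The 1 called higher in C2C12 cells, Prx, was at 6.19 and 7.69 against 14.8 and 12.9 CPM, and it fell under the fold threshold in 10 of 14 alternatives, DESeq2 among them. Sox10 was at 1.08 and 0.139 against 0 and 0.0176 CPM.

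Smooth muscle and pericyte markers summed to 2902 to 2927 CPM in PMs and 2204 to 2541 CPM in C2C12 cells. Des, described above as the intermediate filament of muscle, is on this list and made up a large part of each sum. The order of these sums is therefore not particular to smooth muscle or pericytes. Of 12 tested 3 were called higher in PMs, such as Rgs5 at 53.2 and 79 against 0.0282 and 0.141 CPM (9.38 ± 0.70), and 3 in C2C12 cells, such as Tagln at 76.4 and 71.4 against 261 and 191 CPM (-1.61 ± 0.29). Adipocyte markers summed to 65.5 to 77 CPM and 47.9 to 61.7 CPM (1 and 1 of 4 called higher in PMs and C2C12 cells). Lpl was at 60.1 and 48.7 against 7.21 and 11.1 CPM (2.57 ± 0.37), Pparg at 7.17 and 6.6 against 31.7 and 43.3 CPM (-2.44 ± 0.25), and Plin1, Cidec, Cfd and Lep had 0 counts in all 4 libraries. Tendon markers summed to 98.9 to 108 CPM and 171 to 194 CPM (2 and 2 of 6). Egr1, given above as an immediate early gene, is on the tendon list and made up most of its sum in both C2C12 libraries. Epithelial markers summed to 17.7 to 22.5 CPM and 22.3 to 26.6 CPM (2 and 1 of 5). Krt14 made up most of the last sum in C2C12 cells, and Cldn4, at 15.5 and 21.1 against 0.0845 and 0.229 CPM, was the highest in PMs. The part of other cells in the differences above was not tested.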

How the data were processed

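Poly-A RNA was made into libraries that do not record strand, and genes that overlap on opposite strands can therefore share reads. According to the submitters' processing notes the authors used CASAVA 1.8.2, TopHat2 2.0.10, Bowtie2 2.1.0, HTSeq 0.6.1 and DESeq2 1.8.1 with mm9, and they deposited raw read counts per gene, which were used here. Columns that the authors normalized, and 36 columns of 12 libraries not listed among the samples, were not used. The counts were then tested with edgeR 4.0.16 in R 4.3.3 (filterByExpr, TMM, glmQLFit, glmQLFTest). The 12 siControl libraries shared 1 fit with a mean for each of 6 groups, and the 12 siTead1/4 libraries another. P-values were adjusted with the Benjamini-Hochberg method over all 16416 tested genes, X and Y included, and only genes on other chromosomes are reported. CPM are counts scaled to the TMM library size. Total counts per sample ranged from 25453830 to 52784510 over the 24 libraries, and the biological coefficient of variation was 0.165. Folds against a group at 0 were set against 3 counts per library, and for 1 to 3 counts the ratio of summed counts is given with its exact (Clopper-Pearson) 95% binomial interval. Replicates were checked to differ by more than sampling noise. Replicate numbers name no shared source, and a fit with the number as a block is given as an alternative. The lists hold 862 genes in 29 lists, and 10 of their genes were not found in the table. For 2 listed symbols with 2 identifiers, the identifier with more counts was taken. Genes named were drawn from the Tead and main myogenic factors, Cdkn2a and its neighbours, the 12 largest changes in each direction at 10 CPM or more (without Gm and Rik symbols), up to 2 called members of each role and direction, the highest member of a role with no call, and the markers, except 1 that is not reported here. Not all of these are printed, and further names (such as Crim1, Nuak2, Cyr61, Tap1, H19, Igf2r, Peg3 and Peg10, the genes of the promoters beyond their rule, and those of the closing observations) were chosen after their values were seen. The members and lists were chosen with earlier results of these data known. On simulated data with 200 genes changed by 2 on the log2 scale, the fit for this comparison called 192 and made 6 false calls among 16316 genes. The changed genes were drawn from those at 1 CPM or more in C2C12 cells, and all others were equal between cell types. The simulation therefore does not cover calls of genes near 0 in C2C12 cells, nor a comparison with as many differences as this one. DESeq2 1.42.0, other scalings, filters, sets of libraries and fits without a replicate were tried as alternatives.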

Additional observations from a re-analysis of the deposited data

Results flagged for a closer look

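Some genes called in 1 direction at siControl day 0 were called in the other direction in a comparison of PMs with C2C12 cells on other libraries. Of the genes higher in PMs at day 0, 129 were called higher in C2C12 cells at siControl day 3 and 125 at day 6. With siTead1/4 at day 0 there were 2, Ccdc68 and Gipc2. Of the genes higher in C2C12 cells at day 0, 29 were called higher in PMs at day 3 and 67 at day 6, and with siTead1/4 at day 0 there was 1, Gna14. In all of these, except 1 of the 125, the libraries of the cell types did not overlap in either comparison, which the rule for calls nearly ensures. The difference was not tested.

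Among genes higher in PMs at day 0, Lrp4, a coreceptor of the neuromuscular junction, was at 247 and 223 against 41.3 and 28.3 CPM at day 0. Its means at day 3 were 137 against 318 CPM, PMs first. The secreted factor C1qtnf3 was at 131 and 176 against 26.1 and 11.8 CPM, and its day 3 means were 337 against 1436 CPM. Cxcl12 had day 3 means of 15.3 against 71.8 CPM, and Notch3 had day 6 means of 62.7 against 139.6 CPM. Both had been higher in PMs at day 0. Among genes higher in C2C12 cells at day 0, several of the matrix turned by day 6. Loxl2 had day 6 means of 235 against 19.5 CPM, Col1a2 of 2206 against 751 CPM and Fbln2 of 985 against 258 CPM. Ctgf, at 411 against 96.1 CPM, and Egr1, at 325 against 112 CPM, turned as well, but the day 0 call of Egr1 was lost without PM replicate 2, without C2C12 replicate 2 and with all 24 libraries in the fit.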

How the results depend on the processing

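The numbers of calls, 2555 higher in PMs and 1767 in C2C12 cells, stayed within 1.5 times under DESeq2 (2389 and 1647), median-of-ratios (2589 and 1724) and upper quartile scaling (2710 and 1600), no filter (2688 and 1906), 4 or 24 libraries in the fit (2310 and 1683, or 2593 and 1723) and removal of X and Y genes (2564 and 1750). Leaving out 1 library gave 2258 to 2350 and 1557 to 1672, where the lone sample is assumed to vary like the other groups. Requiring at least 10 counts in every library gave 1266 and 1138 of 12231 tested genes, since it removes genes that are silent in 1 cell type. None of the called genes was called in the opposite direction under any of these. With all 24 libraries in the fit the siTead1/4 counts were 2589 and 1748.

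Same-numbered libraries share no source in the labels, and their deviations correlated at -0.012. A replicate block gave 2580 and 1790 calls with 12 libraries and 2363 and 1692 with 4.

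Of 3117 pairs of an alternative and a gene that the naming rule selects, printed or not, 2989 kept direction and side of the threshold. In 87 pairs, over 28 genes, a call was lost, and in 28, over 9 genes, it was gained. Over the fits without a library, the log2 fold changes were -1.57 to -1.34 for E2f7, -1.95 to -1.21 for Gdf15, -1.23 to -0.92 for Rbl2, 0.92 to 1.11 for Wwc1, 0.95 to 1.09 for Itga7, -1.16 to -0.97 for Ptrf, -3.18 to -1.19 for Atf3, -1.57 to -0.94 for Egr1, -1.44 to -0.71 for Col3a1 and 4.08 to 6.57 for Pecam1, each of which lost its call without at least 1 library. Tead1, at 1.20 without C2C12 replicate 2, gained one.

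The sign turned for 8 genes, none of them called here or under an alternative. Without a filter Cd68 was at -0.011, and with upper quartile scaling Clec3b was at 0.033. The ranges over fits without a library were -0.20 to 0.26 for Cd68, -0.63 to 0.46 for Clec3b, -0.0060 to 0.68 for Col1a1, -2.05 to 2.33 for Esam, -1.41 to 3.15 for Fabp4, -0.70 to 2.66 for Kdr, -0.049 to 0.13 for Rrm2 and -1.70 to 0.12 for S100b. The cause was not tested. The medians of 3 lists changed sign, namely adhesion, from 0.88 to -0.0099 under the filter of 10 counts, Tead and Hippo, from -0.14 to 0.029 without C2C12 replicate 2, and Wnt, from -0.020 to at most 0.061 in 6 alternatives. That of interferon and antigen genes, at 0.00, ranged from -0.44 to 0.25, and that of imprinted genes was 3.35 under the filter of 10 counts. Genes with few counts are the least certain, and 2 libraries per group limit all values.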

Other observations

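Among the 38 genes that were near 0 in C2C12 cells at day 0 and at 10 CPM or more in PMs, some appeared in C2C12 cells during differentiation and others did not. Hspb3, a small heat shock protein of muscle, was at 16.4 and 16.5 against 0.0282 and 0 CPM at day 0 and had a C2C12 mean of 7.22 CPM at day 3. Limch1, which binds myosin, was at 14.5 and 17.1 against 0.0845 and 0 CPM and reached 18.9 CPM at day 3 in C2C12 cells. Ankrd2, a stretch-responsive muscle protein, was at 15.1 and 11.1 against 0.0845 and 0.0529 CPM and reached 71.4 CPM at day 3, above the PM mean of 8.82 CPM. Ampd1, the AMP deaminase of muscle, was at 11.1 and 10.5 against 0.0845 and 0.0529 CPM and reached 3.34 CPM at day 3. By contrast Zfp263, a zinc finger gene, was at 20.9 and 23.7 against 0 and 0.0176 CPM and had a C2C12 mean of 0.053 CPM at day 3. Phactr2 (12.2 and 11.8 against 0.0282 and 0.0176 CPM) and Adcy2, an adenylate cyclase (10.7 and 12.7 against 0.0282 and 0 CPM), had C2C12 means of 0.0115 and 0.023 CPM at day 3. The interferon-induced GTPases Gbp4 (22.9 and 21.4 against 0.0563 and 0 CPM) and Gbp9 (39.8 and 36.1 against 0.0563 and 0.0529 CPM) lie in a run of neighbours higher in PMs on chromosome 5, and their C2C12 means at day 3 were 0.0975 and 0.261 CPM. Of 284 tested antisense genes 71 (25%) were called higher in PMs and 13 in C2C12 cells, and without strand their reads cannot be told apart from those of the gene opposite. These genes were chosen after their values were seen.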
